A study of Homo sapiens with 4 samples.

Results

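The genes described here encode the kinetochore, the spindle assembly checkpoint and the chromosomal passenger complex. They are 35 of the 58051 gene identifiers of the deposited tables, chosen by name as textbook components of this machinery. All 35 had enough reads to enter the test, which covered 18540 genes.

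The kinetochore is the protein assembly that forms on the centromere of each chromosome and holds it to spindle microtubules during mitosis. Its inner layer reads the centromeric histone CENP-A, its outer layer binds microtubules, and the spindle assembly checkpoint delays anaphase while any kinetochore is unattached. Many of these genes are known to be transcribed mainly in the G2 and M phases of the cell cycle. In a lysate of many cells, fewer cells in those phases and less RNA per such cell cannot be told apart.

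Poly(A) RNA was taken from MCF10A cells, a non-tumorigenic breast epithelial line of human origin. The siLMNA group (2 libraries) received an siRNA against LMNA, the gene of lamins A and C of the nuclear lamina. The siLacZ group (2 libraries) received a non-targeting siRNA against LacZ, a bacterial gene that human cells lack. Both groups were transfected in Opti-MEM with siRNA at 50 nM using RNAiMAX (4 uL), went back into growth medium after 6 h and were collected at 48 h. The sources used here give no siRNA sequence and do not say whether a pool was used.

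The libraries held 44672560 and 44357883 counts in siLMNA and 42835396 and 46219896 counts in siLacZ. LMNA itself was at 61.1 and 58.1 CPM in siLMNA, against 480 and 524 CPM in siLacZ, an 8.42-fold fall. CPM is a gene's count as a share of the library's total, on a scale of 1e6, and is scaled here by TMM, edgeR's correction for library composition. No label says that the libraries within a group are separate cultures. The p-values therefore reflect the spread between these 4 libraries alone, and that spread may be technical. Basal epithelial markers of MCF10A were present in every library, with a summed level over 9 genes of 32449 and 30813 CPM in siLMNA and of 16802 and 17795 CPM in siLacZ. Of 10 proliferation markers 10 fell (edgeR quasi-likelihood test, adjusted p under 0.05), where 27.8% of all tested genes were called lower, and their sum was 415 and 464 CPM in siLMNA, against 1375 and 1567 CPM in siLacZ. The sum of 6 fibroblast genes was 766 and 767 CPM in siLMNA, against 175 and 178 CPM in siLacZ, with COL3A1 at 0 counts throughout. Most of this sum was DCN, at 629 and 639 CPM in siLMNA, against 160 and 163 CPM in siLacZ. COL1A1 was at 130 and 122 CPM in siLMNA, against 13.0 and 12.7 CPM in siLacZ. Of the 5 fibroblast genes tested 4 rose, where 26.5% of all tested genes were called higher, and PDGFRB did not pass. PDGFRA, among those that rose, was at only 0.515 and 0.233 CPM in siLMNA. Luminal genes summed to between 23.9 and 25.2 CPM in siLMNA and between 24.9 and 25.1 CPM in siLacZ, with PGR at 0 counts. Endothelial genes summed to at most 6.02 CPM in siLMNA and 4.70 CPM in siLacZ, and leukocyte genes to at most 0.0698 CPM in siLMNA and to 0 in siLacZ. The part that these marker changes have in the results below was not tested.

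Most kinetochore and checkpoint transcripts were less abundant after LMNA siRNA. Of the 35 genes 31 fell (edgeR quasi-likelihood test, adjusted p under 0.05), where 27.8% of all tested genes were called lower. A further 2 rose, CENPT and MAD1L1, where 26.5% of all tested genes were called higher. The remaining 2, MIS12 and PMF1, did not pass. A fall of at least 2-fold was called for 24 genes, where 7.15% of all tested genes had one, and 0 genes rose by that much, where 11.3% did. Against a null of a 1.5-fold change (edgeR's glmTreat), 24 genes were lower, where 9.36% of all tested genes were, and CENPT alone was higher, where 11.4% were. The median log2 fold change (siLMNA over siLacZ) was -1.42, where the median of all tested genes was -0.01.

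Together the 35 genes held 610 and 674 CPM in the siLMNA libraries, against 1438 and 1360 CPM in the siLacZ libraries. As a share of all counts this was 0.0586% and 0.0655% in siLMNA and 0.150% and 0.139% in siLacZ. The ranges of the groups did not overlap for 34 genes, MIS12 being the exception. Across all tested genes, the siLMNA libraries lay below both siLacZ libraries in 38.8% and above both in 37.3%. Counts per gene and library ran between 104 and 13244, and the standard errors (SE) of the log2 fold changes between 0.068 and 0.203.

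**Figure D1:**
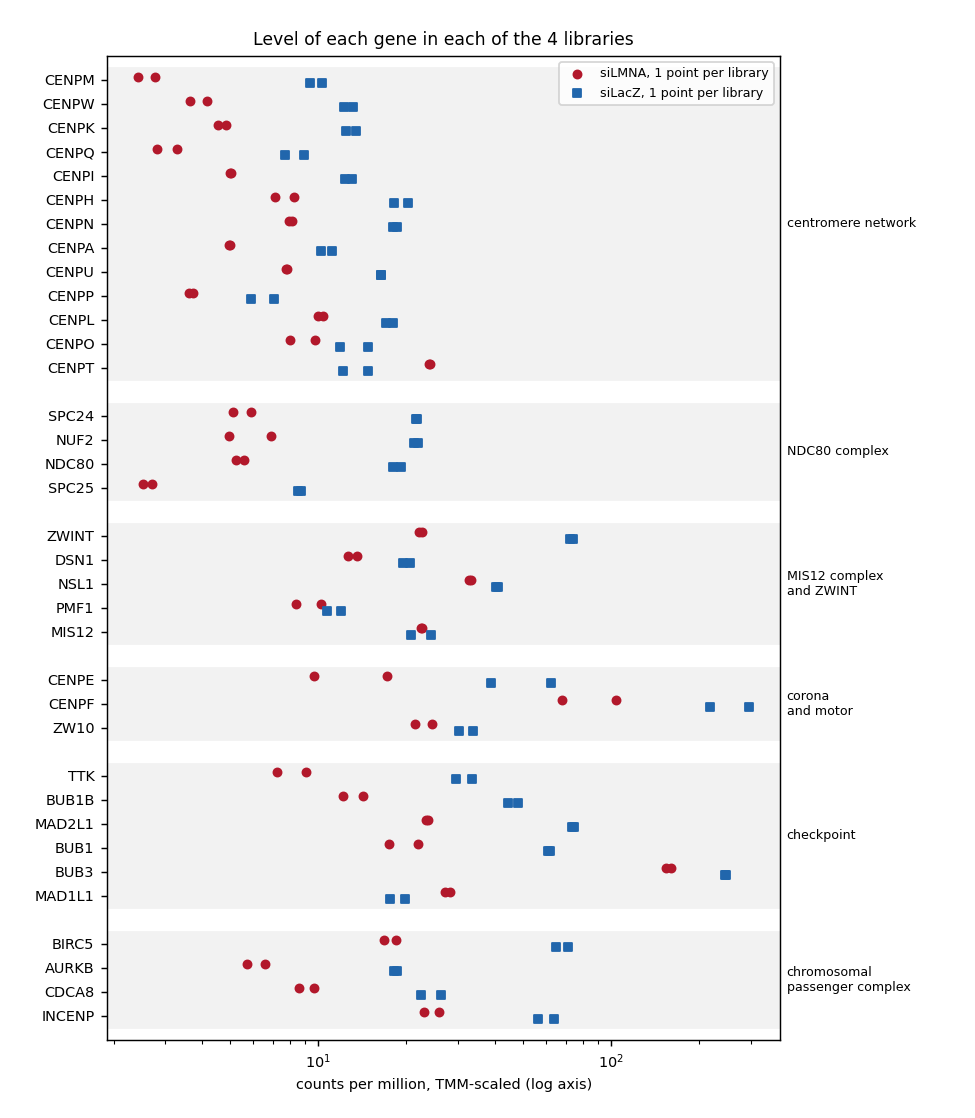
CPM (TMM-scaled, log axis) of each of the 35 genes in each library, with 1 point per library, siLMNA as red circles and siLacZ as blue squares, grouped by role. The siLMNA points lie left of the siLacZ points in most rows, lie to the right for CENPT and MAD1L1, and fall among them for MIS12.

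**Figure D2:**
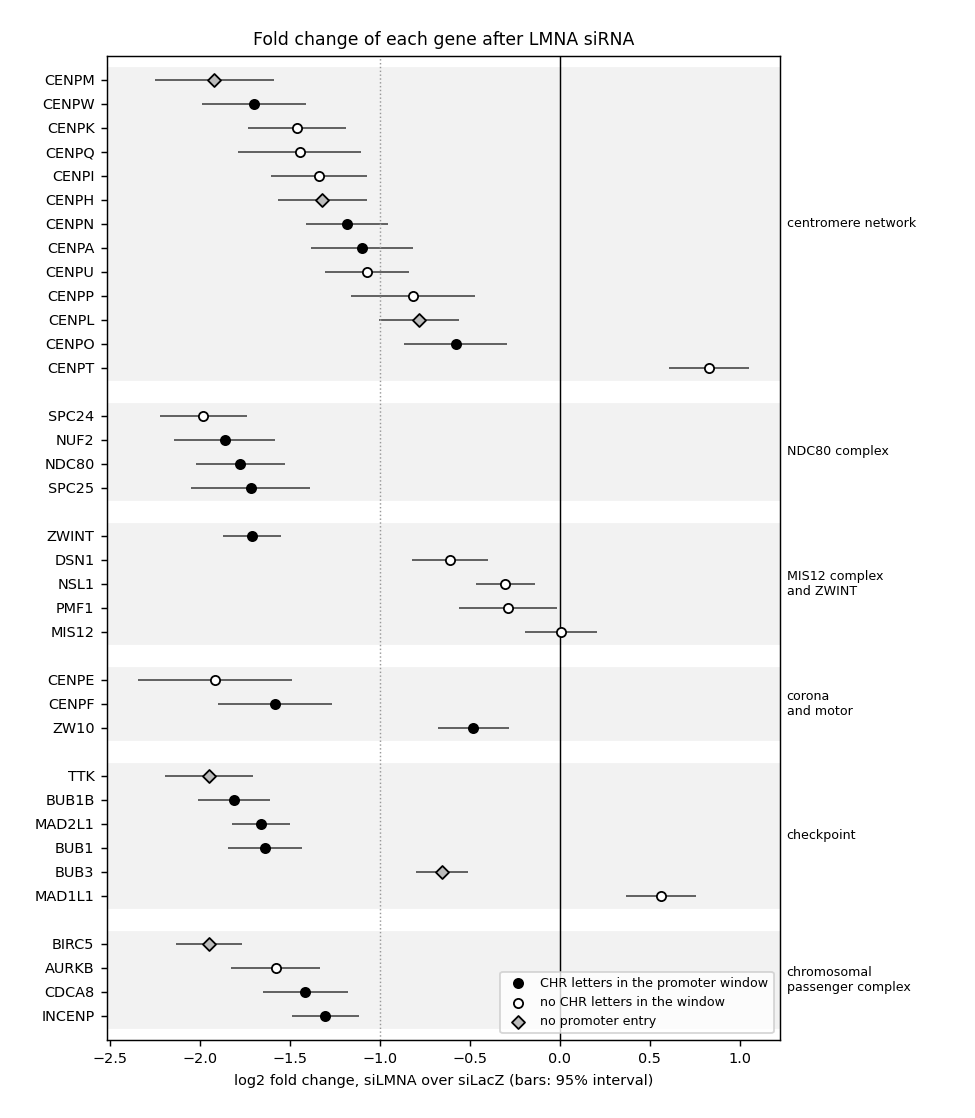
Log2 fold change of each gene, siLMNA over siLacZ, with its 95% interval from the edgeR test, grouped by role, and the dotted line at a 2-fold fall. Filled circles have the CHR letters in the promoter window, open circles do not, and diamonds have no promoter entry. All 15 filled circles lie below 0. Below -1 lie 13 of these and 7 of the 14 open circles.

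The promoters of these genes are shown because genes expressed in G2 and M are known for a short element, the cell cycle genes homology region (CHR), which MuvB complexes bind, often beside CCAAT boxes bound by NF-Y. RefSeq promoter windows (GRCh38.p14, 250 bases before to 50 bases after 1 annotated start) were given for 29 of the 35 genes. They were searched on both strands for TTTGAA or TTCGAA as the CHR, for CCAAT, and for TTTCCCGC, TTTCGCGC, TTTGCCGC or TTTGGCGC as an E2F site. The CHR letters were in 15 of 29 windows (51.7%), where 16.6% of all 27305 windows and 11.6% of the 11147 windows of tested genes held them. In 14 of the 15 they began within 40 bases before to 50 bases after the start. CCAAT was in 62.1%, where 36.2% of tested genes' windows held it, and both elements were in 37.9%, where 4.78% did. The E2F letters were in 3 windows (10.3%), where 5.06% of tested genes' windows held them. A match is a description of letters, and several of these genes have other annotated starts.

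In the 120 bases before the RefSeq start, printed 5′ to 3′ on the gene's own strand, capitals mark the CHR (TTTGAA) and CCAAT or its reverse complement ATTGG. The first 4 stretches hold a CHR close to the start. SPC24 had the lowest log2 fold change of all 35 genes and holds CCAAT letters without a CHR. CENPT and MAD1L1, which rose, hold neither.
CENPA (chr2:26785936-26786055, plus strand): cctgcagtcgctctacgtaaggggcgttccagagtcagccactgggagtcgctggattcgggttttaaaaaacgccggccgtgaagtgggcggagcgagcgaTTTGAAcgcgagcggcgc
BUB1B (chr15:40160949-40161068, plus strand): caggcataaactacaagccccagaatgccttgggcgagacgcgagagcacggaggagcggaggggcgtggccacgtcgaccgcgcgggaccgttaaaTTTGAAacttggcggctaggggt
INCENP (chr11:62123891-62124010, plus strand): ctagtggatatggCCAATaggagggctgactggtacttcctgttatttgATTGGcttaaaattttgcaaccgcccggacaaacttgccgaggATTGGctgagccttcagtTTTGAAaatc
CDCA8 (chr1:37692396-37692515, plus strand): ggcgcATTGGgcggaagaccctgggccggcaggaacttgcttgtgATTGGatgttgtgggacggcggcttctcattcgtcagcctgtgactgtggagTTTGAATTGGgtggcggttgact
SPC24 (chr19:11155783-11155902, minus strand): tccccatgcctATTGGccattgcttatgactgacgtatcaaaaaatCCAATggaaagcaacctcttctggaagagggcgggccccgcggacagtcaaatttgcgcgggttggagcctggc
CENPT (chr16:67847694-67847813, minus strand): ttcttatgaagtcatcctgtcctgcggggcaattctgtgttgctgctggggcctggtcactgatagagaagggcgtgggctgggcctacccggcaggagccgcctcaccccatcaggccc
MAD1L1 (chr7:2232946-2233065, minus strand): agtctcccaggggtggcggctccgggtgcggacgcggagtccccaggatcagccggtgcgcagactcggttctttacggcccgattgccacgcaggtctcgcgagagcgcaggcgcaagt

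The CHR of CENPA begins 18 bases before the start, that of BUB1B 23 bases before it and that of INCENP 10 bases before it. In CDCA8 it begins 23 bases before the start, and its last base is also the first base of an ATTGG. Every one of the 15 genes with the CHR letters fell, with a median log2 fold change of -1.64 and values between -1.86 and -0.48. Without them were 14 genes, of which 10 fell, 2 rose and 2 did not pass, with a median of -0.94 and values between -1.98 and 0.83. The ranges overlap, and no test was made of the difference. For comparison, 31 of the 35 genes and 27.8% of all tested genes were called lower. The share called lower among all tested genes with the CHR letters was not computed. The 6 genes with no window had values between -1.95 and -0.65. CENPT and MAD1L1 are among the 7 genes with none of the 3 elements in the window. The others of these, CENPE, CENPI, CENPP, DSN1 and NSL1, all fell. Their log2 fold changes lay between -1.92 (CENPE) and -0.30 (NSL1).

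In the inner kinetochore, CENP-A and the constitutive centromere network that binds it, 12 of 13 genes fell and CENPT rose, with a median log2 fold change of -1.18. CENPM (ENSG00000100162; hg38 chr22:41938721-41947164, minus strand), a subunit resembling small GTPases in the CENP-H, I, K and M group, had the lowest value. It was at 2.76 and 2.42 CPM in siLMNA, against 9.33 and 10.3 CPM in siLacZ, with no overlap. This is a log2 fold change of -1.92 (SE 0.156, n = 2 per group; edgeR adjusted p = 1.30e-08). Of the other subunits of that group, CENPK fell by 1.46, CENPI by 1.34 and CENPH by 1.32 on the log2 scale. CENPA, the histone H3 variant that marks the centromere, was at 4.99 and 4.96 CPM in siLMNA, against 10.2 and 11.1 CPM in siLacZ, a log2 fold change of -1.10 (SE 0.133). CENPN, which binds the CENP-A nucleosome directly, fell by 1.18, and its partner CENPL by 0.78. In the group of CENP-O, P, Q and U, CENPQ fell by 1.45, CENPU by 1.07, CENPP by 0.82 and CENPO by 0.58.

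CENPO lost its call when siLacZ 2 was left out (log2 fold change -0.39, edgeR adjusted p = 0.158). CENPP shares 38.0% of its exon bases with IPPK on the opposite strand, and IPPK rose by 0.46 on the log2 scale. CENPO shares 27.0% with ADCY3, also on the opposite strand, which did not pass (log2 fold change 0.02, edgeR adjusted p = 0.887). The sources used here do not say whether counting used strand, and without strand the reads of such pairs cannot be told apart.

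CENPT (ENSG00000102901; hg38 chr16:67828157-67847811, minus strand) went against its group. Its product is a histone-fold protein that forms a complex with CENP-W and recruits NDC80 complexes to the centromere. CENPT was at 24.1 and 23.8 CPM in siLMNA, against 14.8 and 12.2 CPM in siLacZ. Both siLMNA libraries lay above both siLacZ libraries. CENPT rose by 0.83 (SE 0.105, n = 2 per group; edgeR adjusted p = 3.10e-06) on the log2 scale, and by between 0.71 and 0.96 with any 1 library left out. Its direct partner CENPW was at 3.65 and 4.17 CPM in siLMNA, against 13.2 and 12.2 CPM in siLacZ, with no overlap and a log2 fold change of -1.70 (SE 0.136). CENPT shares 10.8% of its exon bases with TSNAXIP1, 6.86% with THAP11 and 1.99% with NUTF2, all on the opposite strand. THAP11 fell by 0.47 on the log2 scale and the other two did not pass. Mean levels in siLMNA and siLacZ were 2.03 and 1.34 CPM for TSNAXIP1, 19.2 and 26.6 CPM for THAP11, and 110.6 and 100.2 CPM for NUTF2. The part of reads from these genes in the rise of CENPT was not tested.

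All 4 subunits of the NDC80 complex, the rod that grips microtubules, fell by more than 3-fold. SPC24 (ENSG00000161888; hg38 chr19:11131520-11155808, minus strand), which with SPC25 anchors the rod to the inner kinetochore, was at 5.88 and 5.12 CPM in siLMNA, against 21.6 and 21.8 CPM in siLacZ. The mean in siLMNA was 25.3% of that in siLacZ, with no overlap. Its log2 fold change of -1.98 (SE 0.115, n = 2 per group; edgeR adjusted p = 1.86e-10) was the lowest of the 35 genes. NUF2, whose product pairs with that of NDC80 at the microtubule-binding end, had a log2 fold change of -1.86 (SE 0.133). NDC80 itself fell by 1.78 (SE 0.117) and SPC25 by 1.72 (SE 0.157) on the log2 scale. The 95% intervals of the 4 subunits lay between -2.23 and -1.39.

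The MIS12 complex, which joins the inner kinetochore to the NDC80 complex, changed less. MIS12 (ENSG00000167842; hg38 chr17:5486285-5490814, plus strand) was at 22.5 and 22.6 CPM in siLMNA and at 24.2 and 20.7 CPM in siLacZ. The siLMNA values lie between the siLacZ values. The log2 fold change was 0.01, with a 95% interval of -0.20 to 0.21 (edgeR adjusted p = 0.963). MIS12 shares 9.53% of its exon bases with DERL2 on the opposite strand. DERL2 did not pass, at mean levels of 34.2 CPM in siLMNA and 32.45 CPM in siLacZ (log2 fold change 0.08). The part of reads from DERL2 in the values of MIS12 was not tested. PMF1 (ENSG00000160783; hg38 chr1:156212993-156240042, plus strand) was at 10.2 and 8.38 CPM in siLMNA and at 10.7 and 12.0 CPM in siLacZ. Its groups did not overlap, but the gap between the nearest libraries was smaller than the gap within either group. The log2 fold change was -0.29, with a 95% interval of -0.56 to -0.02 (edgeR adjusted p = 0.0662), and PMF1 passed when siLMNA 1 was left out (-0.44, adjusted p = 0.0167). DSN1 fell by 0.61 (SE 0.100) and NSL1 by 0.30 (SE 0.077) on the log2 scale. NSL1 did not pass without siLacZ 2 (-0.30, edgeR adjusted p = 0.0553).

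The 95% intervals of the 4 MIS12 complex subunits lay between -0.82 and 0.21, all above those of the 4 NDC80 complex subunits. The difference between them was not tested as such. ZWINT (ENSG00000122952; hg38 chr10:56357228-56361275, minus strand), which binds the outer kinetochore scaffold KNL1, was at 22.1 and 22.6 CPM in siLMNA, against 72.2 and 74.2 CPM in siLacZ. The replicates were close and the groups far apart. ZWINT fell by 1.71 (SE 0.077, n = 2 per group; edgeR adjusted p = 6.64e-12) on the log2 scale. PMF1 shares 23.3% of its exon bases with the read-through gene PMF1-BGLAP, which had 0 counts in every library.

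In the fibrous corona, the outermost layer, all 3 genes fell. CENPE (ENSG00000138778; hg38 chr4:103105806-103198409, minus strand), the kinesin that carries chromosomes toward the spindle equator, was at 9.64 and 17.1 CPM in siLMNA, against 62.2 and 38.9 CPM in siLacZ. CENPF, a large coiled-coil protein, was at 68.0 and 104 CPM in siLMNA, against 296 and 218 CPM in siLacZ. Neither gene's groups overlap, but within each group the libraries differ by more than for any other of the 35 genes. The log2 fold changes were -1.92 for CENPE (SE 0.203; edgeR adjusted p = 3.56e-07) and -1.58 for CENPF (SE 0.149; adjusted p = 8.27e-08, n = 2 per group). ZW10, a subunit of the ROD, ZW10 and Zwilch complex that loads dynein and the MAD1 and MAD2 proteins, was at 21.5 and 24.4 CPM in siLMNA, against 30.2 and 33.7 CPM in siLacZ. Its log2 fold change was -0.48 (SE 0.093), and without siLacZ 2 it did not pass (-0.38, edgeR adjusted p = 0.0956).

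For CENPE the log2 ratio of siLMNA over siLacZ was -2.69 between the number 1 libraries and -1.19 between the number 2 libraries. For CENPF it was -2.12 between the number 1 libraries and -1.07 between the number 2 libraries. Among the other genes the pairs differed by at most 0.60, the value of CENPO. With any 1 library left out, the log2 fold change stayed between -2.39 and -1.55 for CENPE and between -1.92 and -1.31 for CENPF. In the authors' deposited table of pair 1, CENPE has a log2 fold change of -2.69 with an SE of 1.00, yet a test statistic of -1.19, where their ratio is -2.69. The p-value deposited there is the two-sided normal p of this ratio, not of the statistic. In the authors' deposited table of pair 2, the statistic of CENPE (-1.58) equals that ratio. The counts of CENPE matched the deposited normalized values in both tables.

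**Figure D3:**
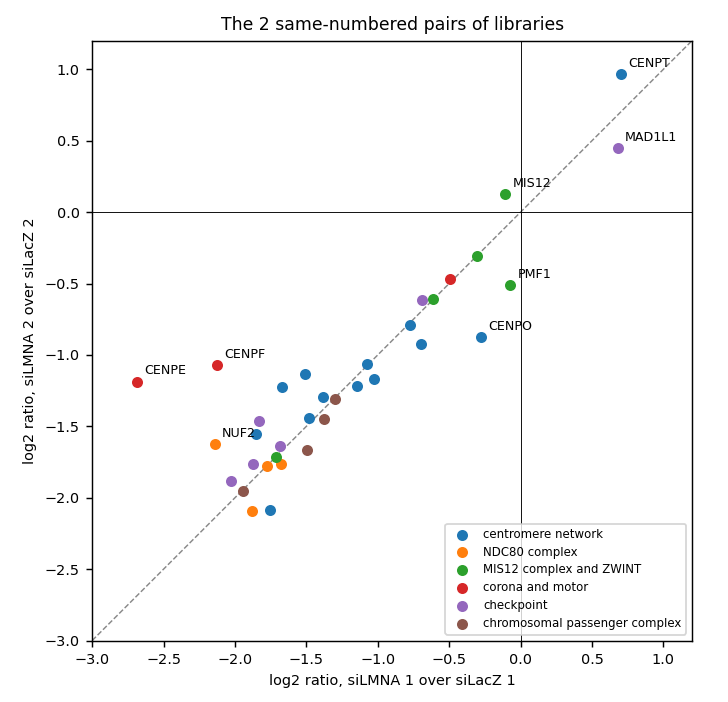
Log2 ratio of each gene between the number 1 libraries (siLMNA 1 over siLacZ 1, horizontal axis) and between the number 2 libraries (vertical axis), coloured by role, with the dashed line where both are equal. Most of the 35 points lie near the line, and CENPE and CENPF lie left of it with larger falls in the first pair.

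CENPE and CENPF also have long, AT-rich transcripts, of 8612 bases at 35.3% GC and of 10307 bases at 40.8% GC. Within siLMNA, library 1 was lower than library 2 by 0.82 on the log2 scale for CENPE and by 0.60 for CENPF. Within siLacZ, library 1 was higher, by 0.67 for CENPE and by 0.45 for CENPF. The 660 genes with a transcript over 7000 bases and GC under 42% (at 5 CPM or more) had a median difference of -0.12 within siLMNA, library 1 over library 2, and of 0.03 within siLacZ. Their 5th to 95th percentiles were -0.35 to 0.08 within siLMNA and -0.18 to 0.32 within siLacZ, and both genes lie outside these ranges. With a trend on GC and length as an offset, an alternative chosen after seeing the data, the log2 fold changes were -2.03 for CENPE and -1.78 for CENPF.

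**Figure D4:**
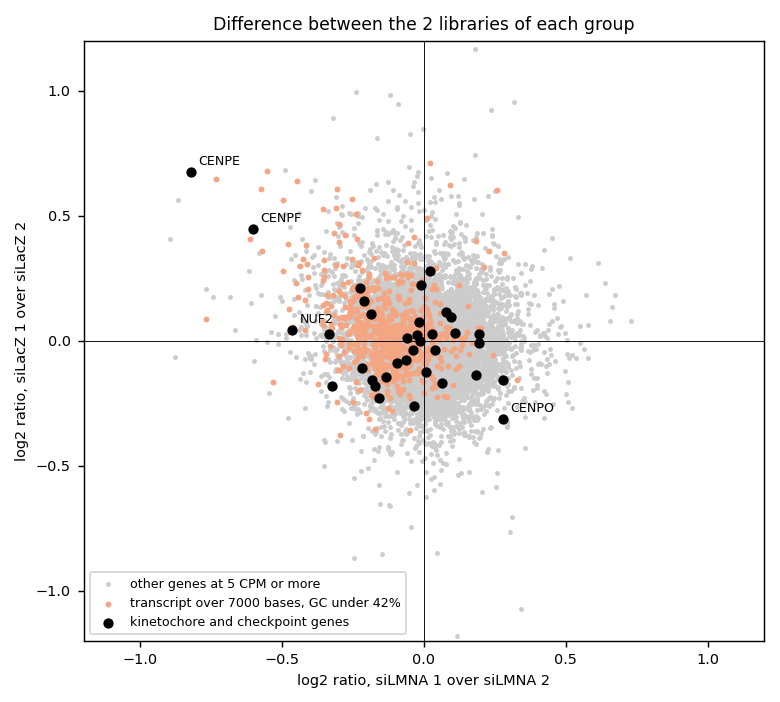
Log2 ratio of library 1 over library 2 within siLMNA (horizontal axis) and within siLacZ (vertical axis) for genes at 5 CPM or more in grey, long GC-poor transcripts in orange and the kinetochore and checkpoint genes in black. CENPE and CENPF lie at the upper left, lower in siLMNA 1 and higher in siLacZ 1 than in the other library of the group; 3 genes lie outside the axes.

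Of the 6 spindle checkpoint genes 5 fell and MAD1L1 rose, with a median log2 fold change of -1.65. TTK (ENSG00000112742; hg38 chr6:80003887-80042527, plus strand), the MPS1 kinase that starts checkpoint signalling at unattached kinetochores, was at 7.23 and 9.07 CPM in siLMNA, against 29.5 and 33.5 CPM in siLacZ. The groups were far apart, with a log2 fold change of -1.95 (SE 0.115, n = 2 per group; edgeR adjusted p = 2.29e-10). BUB1B, which encodes the BUBR1 subunit of the mitotic checkpoint complex and has the CHR shown above, fell by 1.81 (SE 0.095) on the log2 scale. MAD2L1, the MAD2 protein that changes shape to bind CDC20, fell by 1.66 (SE 0.076). BUB1, a checkpoint kinase, fell by 1.64 (SE 0.097). BUB3, the adaptor shared by BUB1 and BUBR1, fell less, by 0.65 (SE 0.068), and stood at 153 and 160 CPM in siLMNA, against 247 and 245 CPM in siLacZ.

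MAD1L1 (ENSG00000002822; hg38 chr7:1815793-2233243, minus strand) encodes MAD1, the platform at the kinetochore on which MAD2 is activated. It was at 28.2 and 27.0 CPM in siLMNA, against 17.6 and 19.8 CPM in siLacZ. Both siLMNA libraries lay above both siLacZ libraries. MAD1L1 rose by 0.56 (SE 0.092, n = 2 per group; edgeR adjusted p = 5.46e-05) on the log2 scale. It did not pass against a minimum change of 1.5-fold (adjusted p = 0.783), while CENPT did.

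All 4 genes of the chromosomal passenger complex, which corrects faulty attachments and serves in cytokinesis, fell by more than 2-fold. BIRC5 (ENSG00000089685; hg38 chr17:78214186-78225636, plus strand), which encodes survivin, was at 16.8 and 18.4 CPM in siLMNA, against 64.6 and 71.4 CPM in siLacZ. With no overlap and a log2 fold change of -1.95 (SE 0.086, n = 2 per group), it had the smallest adjusted p of the 35 genes (edgeR, 5.21e-12). AURKB, the Aurora B kinase, was at 6.55 and 5.72 CPM in siLMNA, against 18.5 and 18.2 CPM in siLacZ, and fell by 1.58 (SE 0.117) on the log2 scale. CDCA8, or borealin, fell by 1.42 (SE 0.112), and the scaffold INCENP by 1.30 (SE 0.088). The promoters of both are printed above, each with a CHR and several CCAAT letters.

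Levels of different genes were set side by side as CPM per kilobase of exon. In siLMNA the highest mean level per kilobase was 18.9, for BUB3. In siLacZ the highest were 30.8 for ZWINT and 29.7 for BUB3. CENPP was lowest in both groups, at 0.375 in siLMNA and 0.661 in siLacZ. Per kilobase of the longest transcript, ZWINT and BUB3 were again highest in siLacZ, at 37.3 and 31.5, but other ranks change with the length taken: BIRC5 is then at 25.1 and CENPF at 24.9, where per kilobase of exon they are at 17.8 and 21.98.

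Because kinetochore proteins work in fixed complexes, the ratio between binding partners was taken within each library for 15 pairs, chosen after the values had been seen. Each shift restates the fold changes of the 2 partners given above, so it is no separate result. The 2 genes that rose, CENPT and MAD1L1, are each paired here with a gene that fell. The ratio of CENPW to CENPT changed most. On the log2 scale, per kilobase of exon, it was 0.08 and 0.29 in siLMNA, against 2.63 and 2.81 in siLacZ, a 5.82-fold shift. In raw counts there were 0.1515 and 0.1751 CENPW reads per CENPT read in siLMNA, against 0.8911 and 1.0070 in siLacZ. The level of such a ratio depends on the transcript lengths taken, so it does not say which partner was in excess; the shift between groups does not depend on them.

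The ratio of MAD2L1 to MAD1L1 had the next largest shift. It was 0.05 and 0.14 on the log2 scale in siLMNA, against 2.42 and 2.23 in siLacZ, a 4.67-fold shift. In raw counts there were 0.826 and 0.877 MAD2L1 reads per MAD1L1 read in siLMNA, against 4.25 and 3.72 in siLacZ. BUB1B against BUB3 shifted by -1.16 and BUB1 against BUB3 by -0.99 on the log2 scale, siLMNA minus siLacZ. In these 4 pairs the groups did not overlap. Small shifts also came without overlap, such as -0.23 for CENPP against CENPO, so this does not set the 4 pairs apart. The share of ratios without overlap among other genes was not computed.

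For 9 of the 15 pairs the mean log2 ratio moved by less than 0.5. NUF2 against NDC80 was at -0.07 and 0.49 in siLMNA and at 0.29 and 0.34 in siLacZ, which overlap. CENPH against CENPK, MIS12 against PMF1 and AURKB against INCENP overlapped as well. SPC25 against SPC24 moved by 0.26 without overlap. No test was made of these ratios, since 2 against 2 libraries cannot give an exact two-sided permutation p below 0.333.

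**Figure D5:**
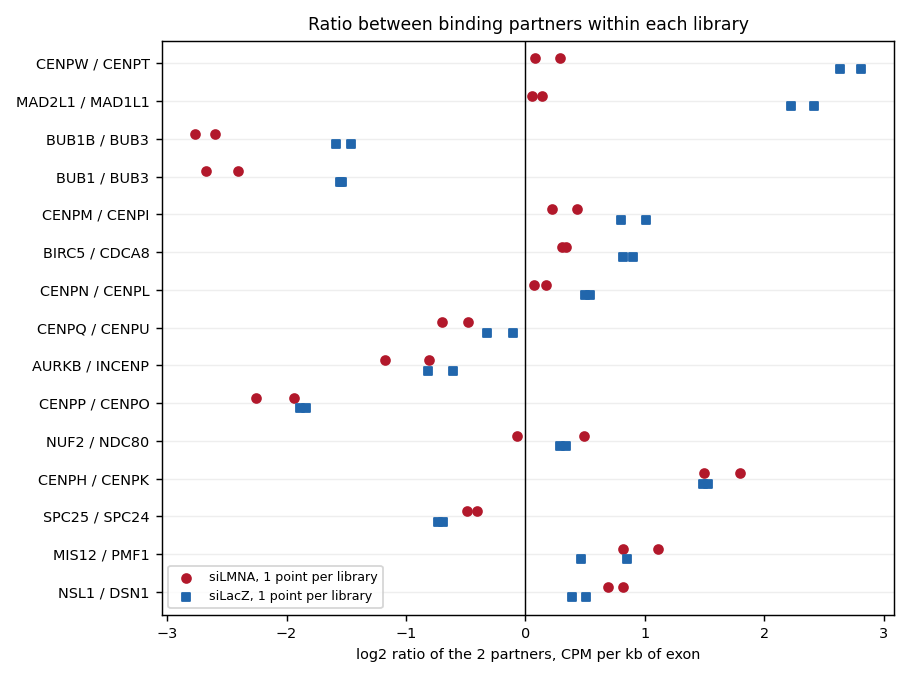
Log2 ratio of 2 binding partners, from CPM per kilobase of exon, in each library for 15 pairs, with siLMNA as red circles and siLacZ as blue squares. Pairs are ordered by the signed shift, siLMNA minus siLacZ, with the most negative at the top and the most positive at the bottom. The largest shifts are those of CENPW to CENPT and of MAD2L1 to MAD1L1, lower in siLMNA; the position of a pair along the axis depends on the exon lengths used, and the distance between the groups does not.

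Other genes of the same machinery, from 4 lists of textbook components, were read beside these. They hold 54 genes, of which 44 fell, 2 rose and 8 did not pass, with a median log2 fold change of -0.74. These counts and those of each list stand beside the 27.8% of all tested genes called lower and the 26.5% called higher. All 5 genes of CENP-A deposition fell. The lowest was OIP5, a subunit of the Mis18 complex that licenses deposition, at 1.62 and 1.98 CPM in siLMNA, against 5.66 and 5.42 CPM in siLacZ (log2 fold change -1.62, SE 0.192). HJURP, the chaperone that deposits CENP-A, fell by 1.44 (SE 0.120) on the log2 scale. Of 5 other centromere proteins 3 fell and 2, CENPB and CENPS, did not pass. The lowest was ITGB3BP, at 8.66 and 9.35 CPM in siLMNA, against 19.7 and 20.1 CPM in siLacZ (log2 fold change -1.14, SE 0.106). CENPB, which binds a DNA box in alpha satellite repeats, had a log2 fold change of -0.04 (edgeR adjusted p = 0.673). CENPS and CENPX belong to the histone-fold complex with CENP-T and CENP-W: CENPX fell by 0.79, while CENPS stood at 2.15 and 2.00 CPM in siLMNA and at 2.06 and 2.07 CPM in siLacZ.

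Among 23 other kinetochore and error correction genes there were 19 that fell, 1 that rose and 3 that did not pass (median log2 fold change -1.07). KIF18A, a kinesin that damps chromosome movement, was lowest, at 3.35 and 5.19 CPM in siLMNA, against 18.8 and 15.5 CPM in siLacZ (log2 fold change -2.01, SE 0.165). NDEL1, a dynein regulator with roles outside mitosis, was the gene that rose, by 0.36 (SE 0.076) on the log2 scale. It was at 60.6 and 65.0 CPM in siLMNA, against 47.6 and 50.3 CPM in siLacZ. CLASP1, CLASP2 and ZNF207 did not pass.

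The checkpoint acts on the anaphase-promoting complex, a ubiquitin ligase. This complex, its activators and its targets made up 21 genes. Of these, 17 fell, 1 rose and 3 did not pass (median -0.56). CDC20, the activator that the checkpoint holds back, was at 28.1 and 31.1 CPM in siLMNA, against 116 and 130 CPM in siLacZ, a log2 fold change of -2.06 (SE 0.083). FZR1, the activator CDH1 that acts in late mitosis and G1, was at 99.2 and 91.3 CPM in siLMNA, against 48.0 and 51.1 CPM in siLacZ. The groups of FZR1 did not overlap, and its log2 fold change was 0.94 (SE 0.076; edgeR adjusted p = 1.16e-08, n = 2 per group). The 2 activators of the ligase therefore moved in opposite directions.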

How the data were processed

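Poly(A) RNA of MCF10A cells was sequenced in 2 siLMNA and 2 siLacZ libraries. Raw read counts per gene stand, per the file headers, in 2 deposited tables, of which each covers the siLMNA and siLacZ libraries with 1 number. The normalized counts they deposited are a signal, the count times 1 factor per library. A log2 fold change, scores (its standard error and a test statistic), a p-value and its adjusted form come from the authors' comparison of 1 library with 1, per the file headers. Per the submitters' processing notes the build is hg38. The sources used here do not give the aligner, counter, annotation or strand use. Columns without a name, of which there were 3, were not used.

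Columns of a row contradicted each other (relative tolerance 1e-06) in 15 rows of 8 genes. The 6 genes whose counts were affected, none of them among the 35, were left out of totals and tests. For CENPE only test columns were affected. The totals that remained were 44.5 and 44.2 in siLMNA and 42.8 and 46.2 in siLacZ, in units of 1e6 counts. Within a group the libraries differed beyond counting noise, with a chi-square over its degrees of freedom of 7.10 for siLMNA and 9.39 for siLacZ.

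Counts of all 4 libraries were tested with the quasi-likelihood test of edgeR 4.0.16 (limma 3.58.1, R 4.3.3; TMM, filterByExpr, group as the only term, Benjamini-Hochberg adjustment over 18540 genes, threshold 0.05). The script was tested on simulated data. The common biological coefficient of variation was 0.0655. The SE comes from the size of the fold change and the test's F. Exon lengths, coordinates and overlaps are from GENCODE 29, matched for 57447 of 58051 identifiers. Alternatives were other normalizations, DESeq2 1.42.0, no low-count filter, each library left out, a replicate block, a 1.5-fold null, the contradicting genes kept, and an added offset for GC and length. Every one of the 35 genes is given with its fold change. Values in every library are given for the largest change of each role, for genes that did not pass and for genes that moved against their role. Of the other lists, apart from the cell type markers, they are given for the largest changes and for genes that rose against the majority. Other genes with such values were chosen after they were seen. The genes and lists were chosen with earlier results of these data known.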

Additional observations from a re-analysis of the deposited data

How the results depend on the processing

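Across 13 alternatives, 25 of the 35 genes kept their direction and their side of the threshold under every one. The number called lower lay between 24 (1.5-fold null) and 32, and the number called higher was 2 except against the 1.5-fold null, where it was 1. With each library left out in turn, 28 to 32 genes were called lower and 2 higher, and the median log2 fold change lay between -1.43 and -1.33. Against the 1.5-fold null, where 9.36% of all genes were lower and 11.4% higher, MAD1L1, CENPL, CENPP, CENPO, DSN1, NSL1, ZW10 and BUB3 did not pass. PMF1 passed with library totals alone (-0.39) and with the added GC and length offset (-0.33), as well as without siLMNA 1. MIS12 changed sign, at -0.092 with library totals alone, -0.0026 without the low-count filter and -0.083 without siLacZ 2, and passed in none of these; with each library left out it lay between -0.083 and 0.11. The median of all genes was -0.11 with library totals alone and -0.10 with the offset; the cause of these shifts was not tested.

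Libraries with the same number showed no shared deviation across genes: the correlation of same-numbered deviations was -0.03. This value cannot say whether libraries with the same number were handled together. With the replicate block 31 genes were called lower and 2 higher, with a median of -1.41. Over all genes, 3121 were lower and 3182 higher without siLacZ 2, against 5157 lower and 4911 higher with all libraries. The split of higher against lower calls over all genes moved to 4121 higher and 6065 lower with library totals alone and to 4192 higher and 6366 lower with the offset. The design holds 2 libraries a group, so the spread behind every p-value is estimated from few libraries and borrowed across genes.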

Other observations

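Regulators of late cell cycle genes were measured in the same libraries. Of 15 such genes, chosen as the factors known to act on CHR or E2F promoter elements and the p53 pathway, 9 fell, 1 rose and 5 did not pass (edgeR, adjusted p under 0.05), where 27.8% of all tested genes were called lower and 26.5% higher. FOXM1, which drives G2 and M genes with the MuvB complex, was at 17.7 and 20.7 CPM in siLMNA, against 57.3 and 77.9 CPM in siLacZ, a log2 fold change of -1.82 (SE 0.120). CDKN1A, the p53 target that encodes the CDK inhibitor p21, was the gene that rose, at 622 and 541 CPM in siLMNA, against 200.4 and 206 CPM in siLacZ, a log2 fold change of 1.52 (SE 0.076). Of the MuvB core subunits, LIN9 fell by 0.62 and LIN54 by 0.63 on the log2 scale, while LIN37, LIN52 and RBBP4 did not pass. Among the proliferation markers MKI67 was lowest, at 95.6 and 122 CPM in siLMNA, against 409 and 539 CPM in siLacZ (log2 fold change -2.12, SE 0.118).

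Of 10889 genes at 5 CPM or more, 16 were lower in siLMNA 1 than in siLMNA 2 and higher in siLacZ 1 than in siLacZ 2, each by at least 0.4 on the log2 scale, and CENPE and CENPF are among them. The 16 genes were picked by these values. Their median transcript length was 7181 bases and their median GC content 37.4%, where the medians of all 10889 were 3834 bases and 47.6%. SGO2, the shugoshin that protects centromeric cohesion, is another of them.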
